A study of Mus musculus with 13 samples.

Results

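The prostanoid receptors, the prostaglandin transporter and the leukotriene enzymes were followed here in RNA from the isolated neurovasculature of mouse brain. The set holds 10 of the 47643 genes in the count table. They are the 4 PGE2 receptors *Ptger1*, *Ptger2*, *Ptger3* and *Ptger4*, the PGF2α receptor *Ptgfr*, the prostacyclin receptor *Ptgir*, the transporter *Slco2a1*, and *Alox5ap*, *Lta4h* and *Ltc4s* of the leukotriene branch. Members were found by Ensembl identifier, and all 10 were among the 17285 genes with enough counts to be tested. The study asked how inhibition of monoacylglycerol lipase (MAGL), the enzyme that releases arachidonic acid from the endocannabinoid 2-arachidonoylglycerol, changes the neurovasculature after lipopolysaccharide (LPS). All animals were male CD1 mice, an outbred stock with no engineered allele, aged 8 to 10 weeks. The sham-vehicle group had 4 mice that received saline (PBS) in place of LPS and no inhibitor. The LPS-vehicle group had 5 mice, which received 3 mg/kg LPS of *Salmonella* into the peritoneum at 0, 6 and 24 h, with the vehicle of the compound. The LPS-CPD-4645 group had 4 mice, which received the same LPS and, 30 min after each dose, 10 mg/kg of the MAGL inhibitor CPD-4645 under the skin. The interval between LPS and compound is that of the labels and the study's methods, and another passage of the study gives a longer one. Brains were taken 28 h after the first injection and were not perfused, so blood cells within the vessels belong to the material. No group received CPD-4645 without LPS.

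Prostanoids and leukotrienes are short-lived lipid signals made from arachidonic acid. Cyclooxygenases and terminal synthases make the prostanoids, which act on G protein-coupled receptors of the same or nearby cells and are cleared by uptake through the transporter and oxidation inside the cell. In the leukotriene branch, 5-lipoxygenase works with its activating protein, the product of *Alox5ap*, to make leukotriene A4, which *Lta4h* turns into the neutrophil attractant leukotriene B4 and *Ltc4s* into leukotriene C4, the first of the cysteinyl leukotrienes. At the brain's vessels PGE2 is known as a signal of fever and inflammation, prostacyclin as a vasodilator, and cysteinyl leukotrienes as agents that raise vessel permeability.

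The sequences before the RefSeq start sites of the members that changed past the threshold are shown first, because these genes moved in different directions and their levels are described below. RefSeq's promoter table for GRCm38.p6 held 8 of the 10 members. *Ptger1* and *Alox5ap* were not in it. The windows hold the bases before the RefSeq start, 5′ to 3′ on the gene's strand, without any base that lies inside the GENCODE M21 gene. Capitals mark the GC box (GGGCGG on either strand), the only motif with a match in these 4 stretches.
Ptgir, chr7:16906240-16906489, plus strand: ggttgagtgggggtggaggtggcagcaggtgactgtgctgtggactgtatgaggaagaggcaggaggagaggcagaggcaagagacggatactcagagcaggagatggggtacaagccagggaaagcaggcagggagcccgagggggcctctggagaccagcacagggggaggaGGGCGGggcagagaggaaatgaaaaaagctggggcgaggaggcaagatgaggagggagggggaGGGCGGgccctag
Ptger3, chr3:157566626-157566875, plus strand: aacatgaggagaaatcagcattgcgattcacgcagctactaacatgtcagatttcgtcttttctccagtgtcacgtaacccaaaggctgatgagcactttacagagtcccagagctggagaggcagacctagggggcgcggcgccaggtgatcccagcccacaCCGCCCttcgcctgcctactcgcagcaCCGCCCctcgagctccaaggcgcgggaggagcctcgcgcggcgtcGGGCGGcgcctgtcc
Ptgfr, chr3:151837631-151837778, minus strand: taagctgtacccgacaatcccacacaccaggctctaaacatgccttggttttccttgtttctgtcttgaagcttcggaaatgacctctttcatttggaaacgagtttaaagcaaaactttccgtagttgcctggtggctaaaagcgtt
Ltc4s, chr11:50238617-50238782, minus strand: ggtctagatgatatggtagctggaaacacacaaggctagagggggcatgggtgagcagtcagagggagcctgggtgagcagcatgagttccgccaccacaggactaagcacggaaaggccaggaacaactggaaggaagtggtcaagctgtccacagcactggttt

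In the full windows of 250 bases, the GC box matched at 76 to 71 and at 13 to 8 bases before the start of *Ptgir*, and at 3 places before the start of *Ptger3*. *Ptgfr* had 1 match, 30 to 25 bases before its start and outside the stretch printed, and *Ltc4s* had none. Of the 32851 promoters in the table, 32.7% held the GC box. The AP-1 motif (TGANTCA), the cyclic AMP element (TGACGTCA), the gamma-activated site (TTCNNNGAA) and the NF-κB motif matched in none of the 8 members' windows, on either strand. These motifs were found in 6.75%, 1.55%, 7.02% and 7.25% of all promoters of that length. The TATA box (TATAAA, 12.4% of promoters) matched before the RefSeq start of *Slco2a1* alone, and the CCAAT box (33.8%) before *Lta4h*, *Ptger2* and *Ptger4*. The *Slco2a1* window (chromosome 9, 103008237 to 103008486) lies wholly inside the GENCODE gene, so that match is not upstream of the gene as annotated there. The motifs were chosen after the expression values were known, and a match or its absence says only which letters stand in the window.

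After LPS, *Alox5ap* rose 2.82-fold and *Ptgir* 4.73-fold while *Ltc4s* fell by 2.46 on the log2 scale (SE 0.43), and the 4 PGE2 receptors, *Ptgfr*, *Slco2a1* and *Lta4h* did not pass the test. The *Ptgir* rise was the least stable of the 3, since its call was lost with limma-voom (adjusted p = 0.0750) and without LPS-vehicle mouse 2 (log2 fold change 1.48, adjusted p = 0.165), among others given below. In mice that also received CPD-4645, *Alox5ap* fell by 1.92 on the log2 scale (SE 0.26) relative to LPS-vehicle mice, and it was the 1 member that passed in that comparison. Relative to sham-vehicle mice, LPS-CPD-4645 mice had a higher level of *Ptgir* and lower levels of *Ltc4s*, *Ptger3* and *Ptgfr*, and the calls of *Ptgir*, *Ptger3* and *Ptgfr* were each lost without certain single mice. The threshold combined a change of 2-fold or more with a p from edgeR's quasi-likelihood test that was 0.05 or lower after Benjamini-Hochberg adjustment over all genes tested. Levels are CPM values, a gene's count relative to the normalised library total, with the SD over mice. In such bulk samples, fewer cells of a type and less RNA per cell cannot be told apart.

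Total counts per library ran from 7813559 in LPS-vehicle mouse 3 to 55133373 in LPS-vehicle mouse 2. The second shallowest library, of LPS-CPD-4645 mouse 1, held 12548404. The 6 endothelial markers were detected in every library, with a summed level of 217 to 459 CPM, and LPS-vehicle mouse 3 lay 1.02 below the mean of the libraries in their average log2 CPM. Markers of other brain cells were abundant in a preparation labelled as vasculature, and the 5 neuronal markers summed to between 5475 and 7477 CPM. Leaving out LPS-vehicle mouse 3 gave the same number of members past the threshold in each comparison, which was 3, 1 and 4.

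**Figure D1:**
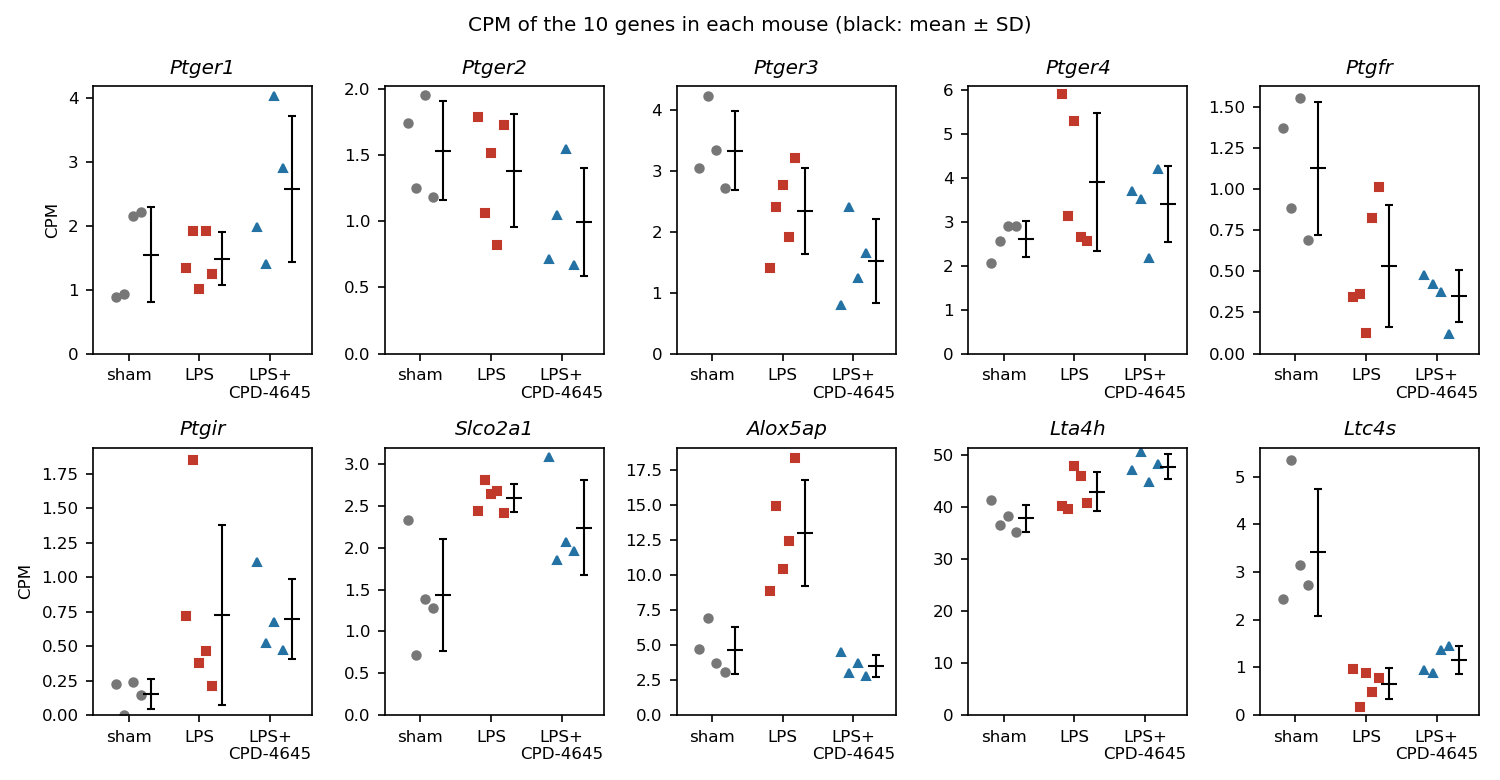
Level of each of the 10 genes in each of the 13 mice, in CPM on a linear axis that starts at 0, for sham-vehicle (grey circles, n = 4), LPS-vehicle (red squares, n = 5) and LPS-CPD-4645 mice (blue triangles, n = 4), with black bars for the mean ± SD. All 5 LPS-vehicle mice stand above the other mice for *Alox5ap*, and all 4 sham-vehicle mice stand above the others for *Ltc4s*.

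Among the PGE2 receptors, *Ptger3*, which couples to inhibitory G proteins, had its lowest mean in LPS-CPD-4645 mice. It measured 3.05, 4.22, 3.35 and 2.72 CPM in sham-vehicle mice 1 to 4. The LPS-vehicle mice 1 to 5 held 1.41, 2.40, 2.77, 1.92 and 3.22 CPM, and the LPS-CPD-4645 mice 1 to 4 held 0.791, 2.41, 1.24 and 1.65 CPM. Every LPS-CPD-4645 mouse lay below every sham-vehicle mouse, whereas the LPS-vehicle mice overlapped both other groups. The group means were 3.33 ± 0.646, 2.34 ± 0.709 and 1.52 ± 0.689 CPM. *Ptger3* fell by 1.09 on the log2 scale (SE 0.33, adjusted p = 0.0144) from sham-vehicle to LPS-CPD-4645 mice. The differences of LPS-vehicle from sham-vehicle mice (-0.52, SE 0.31, adjusted p = 0.260) and of LPS-CPD-4645 from LPS-vehicle mice (-0.57, SE 0.32, adjusted p = 0.186) did not pass. The fall stood close to the 2-fold limit and dropped under it without sham-vehicle mouse 2 (-0.95) and without LPS-CPD-4645 mice 1 (-0.90) or 3 (-0.99), with adjusted p values from 0.0425 to 0.0446. No annotated gene overlaps *Ptger3* (chromosome 3 of GRCm38, 157566892 to 157645888).

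The other PGE2 receptors passed in no comparison. *Ptger4*, which couples to stimulatory G proteins, ranged over the sham-vehicle, LPS-vehicle and LPS-CPD-4645 groups from 2.05 to 2.91, from 2.56 to 5.91 and from 2.18 to 4.20 CPM. Its highest values, 5.91 and 5.29 CPM, came from LPS-vehicle mice 1 and 3, while the other 3 mice of that group lay between 2.56 and 3.14 CPM, and all groups overlapped. The difference after LPS was 0.56 on the log2 scale (SE 0.29, adjusted p = 0.193). *Ptger2*, also coupled to stimulatory G proteins, had means of 1.53 ± 0.375, 1.38 ± 0.424 and 0.993 ± 0.405 CPM in the sham-vehicle, LPS-vehicle and LPS-CPD-4645 groups, which overlapped throughout.

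*Ptger1*, the PGE2 receptor that raises calcium, had means of 1.55 ± 0.741 and 1.49 ± 0.412 CPM in sham-vehicle and LPS-vehicle mice and 2.58 ± 1.15 CPM in LPS-CPD-4645 mice. The difference of LPS-CPD-4645 from LPS-vehicle mice was 0.76 (SE 0.37, adjusted p = 0.128), with the highest levels in LPS-CPD-4645 mice 3 (4.03 CPM) and 4 (2.90 CPM). *Ptger1* lies on chromosome 8, 83666678 to 83672753. The sources used here do not say which strand column of the counting step was kept, so reads of a member and of a gene on the opposite strand may not be fully separated. *Ptger4* (chromosome 15, 5206661 to 5244187) shares 82 exon bases with *Ttc33* on the opposite strand, and *Ptger2* (chromosome 14, 44988195 to 45003820) shares 246 with *Gm17173*, which had at most 4 counts in any library.

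The PGF2α receptor *Ptgfr*, which raises calcium and contracts smooth muscle, had its lowest mean in LPS-CPD-4645 mice as well. It measured 1.37, 0.885, 1.55 and 0.691 CPM in sham-vehicle mice 1 to 4. In LPS-vehicle mice 1 to 5 the values were 0.343, 0.359, 0.126, 0.821 and 1.01 CPM, and in LPS-CPD-4645 mice 1 to 4 they were 0.474, 0.420, 0.376 and 0.118 CPM. All LPS-CPD-4645 mice lay below all sham-vehicle mice, while LPS-vehicle mice 4 and 5 lay within the sham-vehicle range. The fall from sham-vehicle to LPS-CPD-4645 mice was 3.30-fold (log2 fold change -1.72, SE 0.59, adjusted p = 0.0263). After LPS alone the difference was -0.997 (SE 0.52, adjusted p = 0.193), and LPS-CPD-4645 differed from LPS-vehicle mice by -0.73 (SE 0.57, adjusted p = 0.354). These values rest on 1 to 48 counts per library. The call of the fall was lost without sham-vehicle mouse 1 (-1.61, adjusted p = 0.0714), sham-vehicle mouse 3 (-1.52, 0.0846), LPS-CPD-4645 mouse 3 (-1.77, 0.0501) or LPS-CPD-4645 mouse 4 (-1.41, 0.0874). *Ptgfr* lies on chromosome 3, 151796502 to 151837630, and *Gm43618*, which shares 329 exon bases on the opposite strand, had at most 6 counts in any library.

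The prostacyclin receptor *Ptgir*, which relaxes vessels and restrains platelets, had the lowest level per exon length in sham-vehicle mice, with 8, 0, 6 and 3 counts in mice 1 to 4. These counts correspond to 0.228, 0, 0.239 and 0.148 CPM, and for mouse 2 a count of 0 allows up to 0.121 CPM (3 counts, counting error only). LPS-vehicle mice 1 to 5 held 0.721, 1.85, 0.378, 0.465 and 0.209 CPM, and LPS-CPD-4645 mice 1 to 4 held 1.11, 0.525, 0.678 and 0.471 CPM. LPS-vehicle mouse 2, with 103 counts, stood well above the rest of its group, and mouse 5 lay inside the sham-vehicle range. All 4 LPS-CPD-4645 mice lay above all sham-vehicle mice. The log2 fold change over sham-vehicle mice was 2.24 (SE 0.74, adjusted p = 0.0376) after LPS and 2.07 (SE 0.78, adjusted p = 0.0398) after LPS with CPD-4645. LPS-CPD-4645 and LPS-vehicle mice differed by -0.17 (SE 0.65, adjusted p = 0.868), and this difference turned positive without LPS-vehicle mouse 2 (0.59).

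Both *Ptgir* calls depended on single libraries and on the test. With limma-voom, the study's test, the adjusted p values were 0.0750 and 0.0673. The call after LPS was lost without sham-vehicle mouse 1 (2.52), 2 (1.84), 3 (2.49) or 4 (2.21), LPS-vehicle mouse 1 (2.26) or 2 (1.48), or LPS-CPD-4645 mouse 2 (2.24), with adjusted p values from 0.0514 to 0.165. The *Ptgir* call after LPS with CPD-4645 was lost without sham-vehicle mouse 1 (2.36), 2 (1.69), 3 (2.35) or 4 (2.07), or LPS-CPD-4645 mouse 1 (1.81), 2 (2.19) or 3 (2.08), with adjusted p values from 0.0525 to 0.0960. *Ptgir* lies on chromosome 7, 16906490 to 16910905, with no overlapping gene.

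The prostaglandin transporter *Slco2a1*, which takes up prostaglandins for breakdown, had similar levels in all LPS-vehicle mice. The sham-vehicle mice 1 to 4 held 2.34, 0.724, 1.39 and 1.28 CPM, the LPS-vehicle mice 1 to 5 held 2.44, 2.82, 2.65, 2.68 and 2.41 CPM, and the LPS-CPD-4645 mice 1 to 4 held 3.08, 1.85, 2.07 and 1.96 CPM. The LPS-vehicle values all exceeded the sham-vehicle values, the nearest pair being 2.41 and 2.34 CPM. The SD over LPS-vehicle mice was 6.56% of their mean, against 46.7% in sham-vehicle mice. These values rest on 21 to 157 counts per LPS-vehicle library and 18 to 82 per sham-vehicle library. Counting error alone at such counts is wider than the LPS-vehicle spread, so no even expression is read from it. The difference after LPS, 0.84 on the log2 scale (SE 0.31, adjusted p = 0.0601), missed the threshold and passed it without sham-vehicle mouse 1 (1.20, adjusted p = 0.0152). LPS-CPD-4645 mice differed by 0.61 (SE 0.32, adjusted p = 0.143) from sham-vehicle and by -0.23 (SE 0.30, adjusted p = 0.592) from LPS-vehicle mice. *Slco2a1* lies on chromosome 9, 102988712 to 103096002, and the overlapping genes in the count table had 0 counts.

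Of the leukotriene genes, *Alox5ap* set the LPS-vehicle mice apart from both other groups. Its product hands arachidonic acid to 5-lipoxygenase. The sham-vehicle mice 1 to 4 held 4.71, 6.96, 3.74 and 3.06 CPM. After LPS, mice 1 to 5 held 8.83, 14.96, 10.5, 12.5 and 18.3 CPM, and with CPD-4645 mice 1 to 4 held 4.51, 2.97, 3.73 and 2.79 CPM. The lowest LPS-vehicle mouse was above the highest mouse of either other group, and the sham-vehicle and LPS-CPD-4645 ranges overlapped. *Alox5ap* rose from 4.62 ± 1.70 to 13.01 ± 3.76 CPM after LPS (log2 fold change 1.497, SE 0.25, adjusted p = 0.00031). In LPS-CPD-4645 mice it stood at 3.50 ± 0.786 CPM, 3.78-fold below LPS-vehicle mice (log2 fold change -1.92, SE 0.26, adjusted p = 4.9e-05). The difference of LPS-CPD-4645 from sham-vehicle mice was -0.42 (SE 0.27, adjusted p = 0.229). The rise and the fall share the LPS-vehicle libraries.

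Leaving out any 1 mouse kept the *Alox5ap* rise between 1.34 and 1.76 and the fall between -2.04 and -1.76, all past the threshold. *Alox5ap* (chromosome 5, 149264767 to 149288153) shares 189 of its 1420 exon bases with *Gm19719* on the opposite strand. *Gm19719* was at 0.565 ± 0.264 and 0.478 ± 0.311 CPM in the sham-vehicle and LPS-vehicle groups and at 0.0663 ± 0.0195 CPM after CPD-4645, where no library had more than 2 counts.

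*Ltc4s*, the enzyme that joins leukotriene A4 to glutathione, went the other way after LPS. Sham-vehicle mice 1 to 4 held 2.42, 5.35, 3.15 and 2.72 CPM. LPS-vehicle mice 1 to 5 held 0.961, 0.161, 0.882, 0.493 and 0.775 CPM, and LPS-CPD-4645 mice 1 to 4 held 0.949, 0.874, 1.36 and 1.45 CPM. Both LPS groups lay wholly below the sham-vehicle mice, and they overlapped each other. The fall was 5.50-fold after LPS (log2 fold change -2.46, SE 0.43, adjusted p = 0.00039) and 2.92-fold after LPS with CPD-4645 (-1.54, SE 0.43, adjusted p = 0.0089). LPS-CPD-4645 mice differed from LPS-vehicle mice by 0.91 (SE 0.44, adjusted p = 0.122). Without any 1 mouse the *Ltc4s* fall stayed between -2.70 and -2.15 after LPS and between -1.68 and -1.23 after LPS with CPD-4645, all past the threshold. The *Ltc4s* call after LPS with CPD-4645 was lost when libraries were scaled to the endothelial markers and in a test of the 2-fold change itself. *Ltc4s* (chromosome 11, 50236461 to 50238616) shares 268 of its 1014 exon bases with the antisense gene *Gm26542*, which had at most 10 counts in any library. *Ltc4s* itself had 55 to 133 counts in sham-vehicle, 7 to 28 in LPS-vehicle and 12 to 37 in LPS-CPD-4645 libraries. The means of *Gm26542* in these groups were 0.271 ± 0.0524, 0.0969 ± 0.112 and 0.161 ± 0.0808 CPM. How far reads of the 2 genes mix was not tested.

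*Lta4h*, which makes leukotriene B4, varied little within each group. The sham-vehicle, LPS-vehicle and LPS-CPD-4645 means were 37.9 ± 2.64, 43.0 ± 3.75 and 47.8 ± 2.41 CPM. LPS-CPD-4645 mice held 47.2, 50.7, 44.9 and 48.3 CPM, all above the sham-vehicle mice at 41.3, 36.7, 38.2 and 35.2 CPM. This difference of 0.34 on the log2 scale (SE 0.09, adjusted p = 0.0060) met the p threshold but was 1.26-fold. The LPS-vehicle mice, at 40.2, 39.7, 47.9, 46.1 and 40.8 CPM, overlapped both groups. No gene overlaps *Lta4h* (chromosome 10, 93453411 to 93484875).

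**Figure D2:**
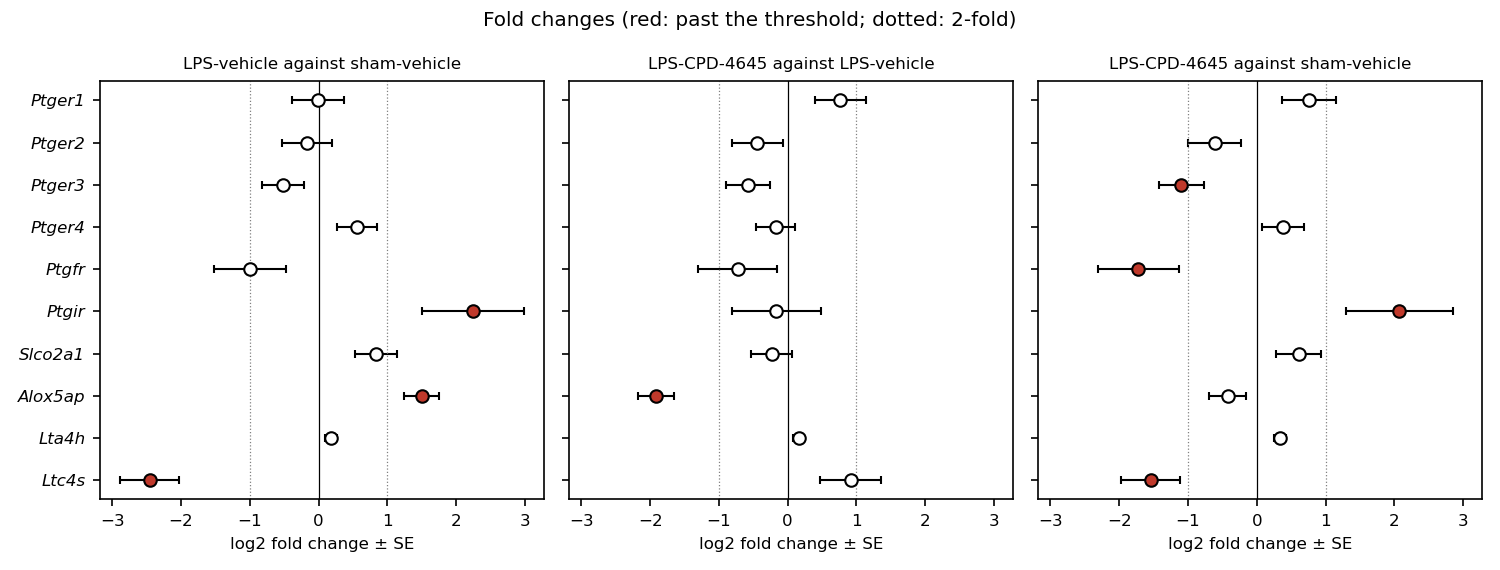
Log2 fold change ± SE of each gene in the 3 comparisons, from 1 edgeR fit of all 13 mice, with red points past the threshold and dotted lines at a 2-fold change. Red points are *Ptgir*, *Alox5ap* and *Ltc4s* on the left, *Alox5ap* (-1.92) in the middle, and *Ptger3*, *Ptgfr*, *Ptgir* and *Ltc4s* on the right.

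Counted over the set, 2 of the 10 members rose and 1 fell after LPS, where 4.68% of all genes tested rose and 0.995% fell. The adjusted p alone was met by 3 members, against 19.9% of all genes, and the groups did not overlap for 3 members (*Slco2a1*, *Alox5ap* and *Ltc4s*), against 18.1%. For LPS-CPD-4645 against LPS-vehicle mice, 0 members rose and 1 fell, where 1.70% of all genes rose and 4.19% fell. None of the 10 was higher at an unadjusted p under 0.05 with edgeR (0 members), and limma-voom and DESeq2 also called 0 higher. The adjusted p alone was met by 1 member against 30.5% of all genes, and 1 member had groups that did not overlap, against 23.0%. For LPS-CPD-4645 against sham-vehicle mice, 1 member was higher and 3 were lower, where the shares of all genes were 6.11% and 4.98%. Here 5 members met the adjusted p against 38.8% of all genes, and for 5 the groups did not overlap, against 37.5%. Each gene is 10% of the set, so 1 gene more or fewer moves a share by that much, and nothing particular to the set is read from these counts. The median log2 fold changes of the members were 0.09, -0.20 and -0.04 in the 3 comparisons in that order, beside -0.00065, -0.02 and -0.01 over all genes. The comparisons share libraries with one another.

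When libraries were scaled to an equal mean of the endothelial markers, all 4 calls against sham-vehicle mice in LPS-CPD-4645 mice were lost, as was the call of *Ptgir* after LPS (2.24, adjusted p = 0.0755). Of these 6 markers, 1 rose and 2 fell after LPS in the fit with the usual scaling. Against sham-vehicle mice, the log2 fold changes of LPS-CPD-4645 mice were then -0.90 for *Ptger3* (adjusted p = 0.252), -1.52 for *Ptgfr* (0.180), 2.30 for *Ptgir* (0.0522) and -1.35 for *Ltc4s* (0.0866). Against LPS-vehicle mice *Alox5ap* stayed past the threshold under this scaling.

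The order of the members was compared per length, as CPM per kilobase of exon. In sham-vehicle mice *Lta4h* came first at 6.20 ± 0.432 CPM per kilobase, followed by *Ltc4s* (3.36 ± 1.31) and *Alox5ap* (3.25 ± 1.20), whose ranges overlapped each other but not those of their other neighbours. *Ptger3* led the receptors at 0.586 ± 0.114 CPM per kilobase, above the range of *Ptger4* (0.393 ± 0.0609). From *Ptger4* down, each gene's range overlapped that of the next, through *Ptger2*, *Ptger1*, *Ptgfr* and *Slco2a1* to *Ptgir* at 0.0461 ± 0.0331.

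In LPS-vehicle mice *Alox5ap* (9.16 ± 2.65 CPM per kilobase) stood first and overlapped *Lta4h* (7.04 ± 0.615). *Ltc4s* had dropped to 0.646 ± 0.323, within reach of *Ptger4* (0.588 ± 0.236), and *Ptgfr* was last at 0.0786 ± 0.0545, below the range of *Slco2a1*. In LPS-CPD-4645 mice the first 4 genes were apart from one another, with *Lta4h* at 7.83 ± 0.396, *Alox5ap* at 2.46 ± 0.553, *Ltc4s* at 1.14 ± 0.284 and *Ptger4* at 0.513 ± 0.130 CPM per kilobase. *Ptgfr* was again last, at 0.0512 ± 0.0233.

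Among other receptors, enzymes and carriers of the pathways, 11 of 15 listed genes were tested (all but *Ptgdr2*, *Ltb4r2*, *Cysltr2* and *Dpep1*). After LPS 3 rose and 0 fell with edgeR, where 2 were lower at an unadjusted p under 0.05 and limma-voom and DESeq2 called 0 lower. *Alox5*, the 5-lipoxygenase that works with *Alox5ap*, rose from 0.418 ± 0.131 to 2.12 ± 0.897 CPM (log2 fold change 2.37, SE 0.45, adjusted p = 0.00088). In LPS-CPD-4645 mice *Alox5* was at 1.21 ± 0.628 CPM, still above sham-vehicle mice (1.53, SE 0.47, adjusted p = 0.0147), and its difference from LPS-vehicle mice was -0.84 (SE 0.41, adjusted p = 0.125). *Mgst2*, a glutathione transferase that can also make leukotriene C4, rose while *Ltc4s* fell, from 0.248 ± 0.139 to 0.860 ± 0.168 CPM (1.81, SE 0.47, adjusted p = 0.0105). It was at 0.691 ± 0.0780 CPM in LPS-CPD-4645 mice.

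*Dpep2*, a dipeptidase of cysteinyl leukotrienes, rose from at most 5 counts per sham-vehicle library, by 2.96 on the log2 scale (SE 0.78, adjusted p = 0.0095). *Ggt1*, a transferase that turns leukotriene C4 into D4, was the 1 gene of this list that fell in LPS-CPD-4645 against LPS-vehicle mice, from 4.39 ± 0.564 to 1.60 ± 0.480 CPM (-1.46, SE 0.24, adjusted p = 0.00023), and 0 rose with edgeR, with an unadjusted p under 0.05, with limma-voom and with DESeq2. Against sham-vehicle mice 3 genes were higher (*Alox5*, *Mgst2* and *Dpep2*) and 2 were lower, *Ggt1* (-1.18) and the thromboxane receptor *Tbxa2r* (-1.62, SE 0.36, adjusted p = 0.0016). The receptors and carrier next to the members did not pass. The leukotriene B4 receptor *Ltb4r1* differed by 1.12, 0.27 and 1.39 in the 3 comparisons, the cysteinyl leukotriene receptor *Cysltr1* by 0.62, -0.08 and 0.55, and the prostanoid exporter *Abcc4* by -0.52, 0.01 and -0.51.

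Of the synthesis and breakdown enzymes, 17 of 18 matched genes were tested, all but *Alox15*. After LPS 2 rose, the inducible cyclooxygenase *Ptgs2* (7.33 ± 1.89 to 35.3 ± 20.1 CPM, log2 fold change 2.27, SE 0.37) and the inducible PGE2 synthase *Ptges* (5.63 ± 1.35 to 33.1 ± 15.4 CPM, 2.54, SE 0.30), and 1 fell, *Alox12* (-3.79, SE 0.69). *Ptges* was lower in LPS-CPD-4645 than in LPS-vehicle mice at 14.7 ± 3.74 CPM (-1.17, SE 0.28, adjusted p = 0.0047), with overlapping groups, while *Ptgs2* differed by -0.15 (SE 0.34). In that comparison 1 enzyme fell and 0 rose with edgeR, 1 was higher and 4 were lower at an unadjusted p under 0.05, and limma-voom and DESeq2 each called 0 higher and 2 lower. Against sham-vehicle mice *Ptgs2* (2.11) and *Ptges* (1.37) were higher, and *Alox12* (-2.94) and the thromboxane synthase *Tbxas1* (-1.53) were lower. The synthase of prostacyclin, *Ptgis* (0.67, -0.28 and 0.38), and the enzyme that oxidizes prostaglandins, *Hpgd* (0.28, 0.19 and 0.47), passed in no comparison.

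**Figure D3:**
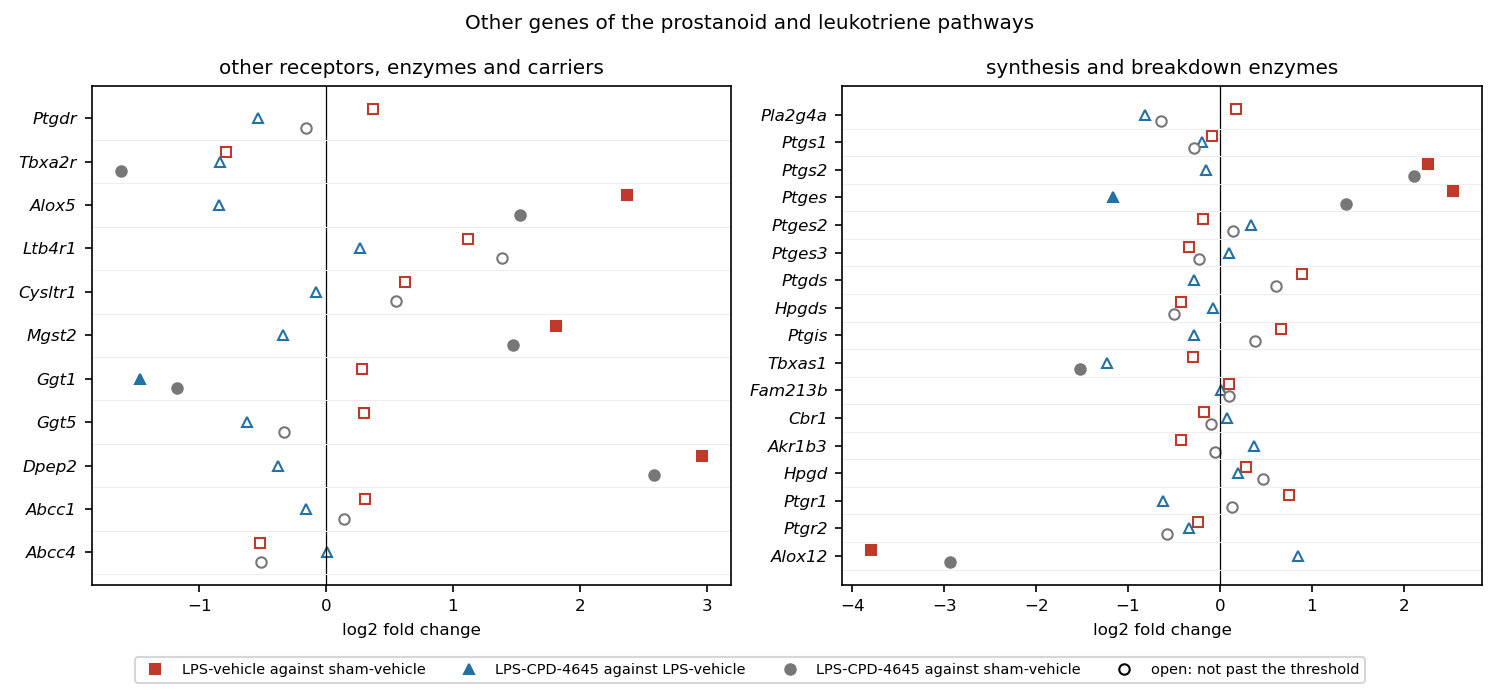
Log2 fold change of the other receptors, enzymes and carriers (left, 11 genes) and of the synthesis and breakdown enzymes (right, 17 genes) in LPS-vehicle against sham-vehicle (red squares), LPS-CPD-4645 against LPS-vehicle (blue triangles) and LPS-CPD-4645 against sham-vehicle mice (grey circles), filled where past the threshold. *Ggt1* (-1.46) and *Ptges* (-1.17) carry the 2 filled blue triangles.

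Markers of neutrophils and of monocytes and macrophages moved with *Alox5ap*, while the 5 lymphocyte markers, too low to be tested, did not. The lymphocyte markers summed to 0.282 to 0.856 CPM in sham-vehicle, 0 to 0.417 CPM in LPS-vehicle and 0 to 0.113 CPM in LPS-CPD-4645 mice. The 7 neutrophil markers summed to 1.23 to 5.33, 62.0 to 268 and 7.04 to 26.9 CPM in the sham-vehicle, LPS-vehicle and LPS-CPD-4645 groups. Of the 6 that were tested, 6 rose after LPS and 6 were lower in LPS-CPD-4645 than in LPS-vehicle mice, and 3 were still above sham-vehicle mice. *Ly6g* was at 0 in at least 1 library of each group. The 6 monocyte and macrophage markers summed to 4.82 to 6.31, 10.4 to 23.3 and 4.47 to 8.86 CPM in the same order, with 4 of 5 tested rising after LPS and 2 lower in LPS-CPD-4645 than in LPS-vehicle mice.

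Within the LPS-vehicle group, *Alox5ap* was highest in mouse 5 (18.3 CPM), where the neutrophil sum was 64.0 CPM, and second highest in mouse 2 (14.96 CPM), where that sum was 268 CPM. *Alox5ap* was lowest in mouse 1 (8.83 CPM), which also had the lowest monocyte and macrophage sum, 10.4 CPM. Leukocytes are known to express *Alox5ap* and *Alox5*, and their part in these results was not tested.

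Some markers of microglia, pericytes and smooth muscle were lower in the groups in which *Ltc4s*, *Ptgfr* or *Ptger3* fell. The 5 microglia markers summed to 166 to 224, 113 to 217 and 117 to 142 CPM in the groups in that order, and none of the 5 was at 0 in any library. Of these markers 1 fell after LPS, and 2 were lower in LPS-CPD-4645 than in sham-vehicle mice. The 7 pericyte and smooth muscle markers summed to 171 to 260, 137 to 206 and 160 to 219 CPM, with 3 lower after LPS and 1 lower in LPS-CPD-4645 than in sham-vehicle mice. Of all genes tested, 0.995% were lower after LPS and 4.98% in LPS-CPD-4645 against sham-vehicle mice. The 5 mast cell markers summed to 51.0 to 59.0, 44.7 to 65.7 and 37.8 to 45.5 CPM in the same order, and *Kit*, the 1 of them that was tested, passed in no comparison. The defining mast cell markers *Cma1* and *Mcpt4* were at 0 in all sham-vehicle and LPS-vehicle libraries, and *Cma1*, *Cpa3* and *Tpsb2* in all LPS-CPD-4645 libraries. Other lists differed between groups as well. Every LPS-vehicle mouse lay below the sham-vehicle range for the erythrocyte and oligodendrocyte sums, given below, and above it for the astrocyte sum. The neuronal sum was also lower, at 5475 to 6116 CPM in LPS-vehicle against 6339 to 7477 CPM in sham-vehicle mice. How far cell makeup enters the levels of *Ltc4s*, *Ptgfr* and the other receptors was not tested.

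**Figure D4:**
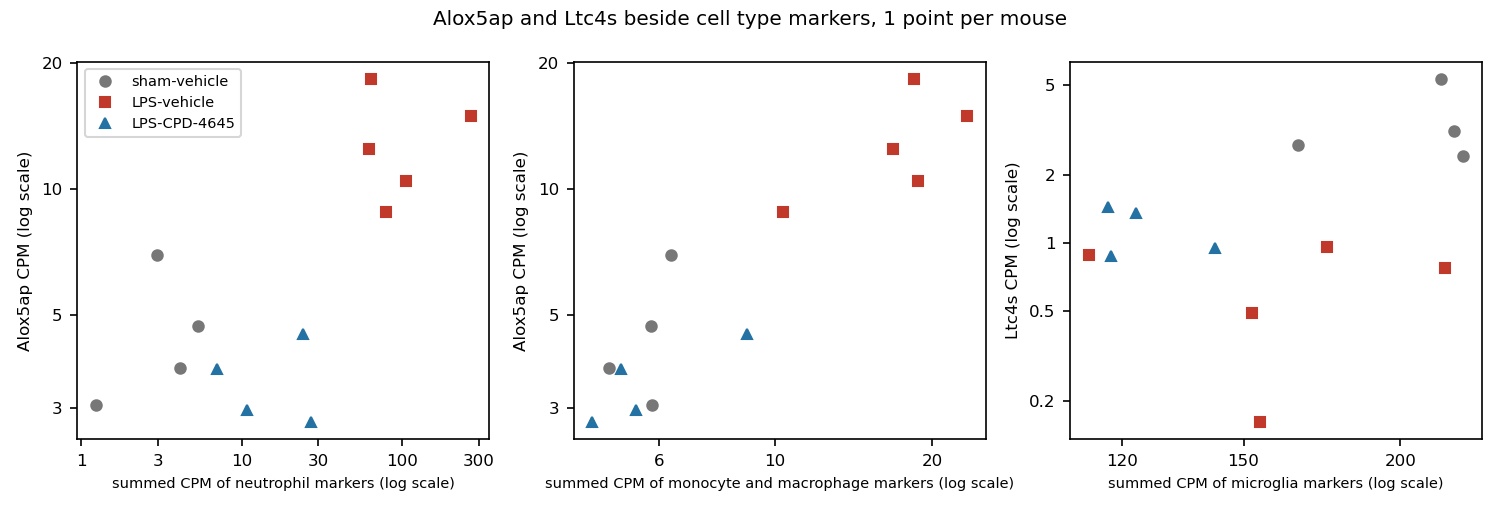
*Alox5ap* CPM against the summed CPM of the neutrophil markers (left) and of the monocyte and macrophage markers (middle), and *Ltc4s* CPM against the summed CPM of the microglia markers (right), 1 point per mouse on log axes, for sham-vehicle (grey circles), LPS-vehicle (red squares) and LPS-CPD-4645 mice (blue triangles). The LPS-vehicle mice stand apart at the upper right of the first panels, with neutrophil sums of 62.0 to 268 CPM, and the sham-vehicle mice stand above all others for *Ltc4s*.

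For the 5 members past the threshold in any comparison, the most alike genes were sought among 13785 protein-coding genes whose mean reached 1 CPM. Likeness was the root mean square difference of log2 CPM, each gene centred on its own mean over the 13 libraries. The nearest to *Alox5ap* was *Cyp4f15* (0.26), followed by *Itih3* (0.35) and *Lgi4* (0.38). *Ltc4s* had *1700016K19Rik* (0.46), *Pllp* (0.69) and *Tmem98* (0.70) as its nearest, *Ptger3* had *Ccdc160* (0.31), *Srpx2* (0.32) and *Slc46a1* (0.32), *Ptgfr* had *Casq2* (0.41), *Kdr* (0.44) and *Slc6a13* (0.46), and *Ptgir* had *Apold1* (0.53), *Ptafr* (0.56) and *Elf4* (0.58). The members' own root mean square deviations from their means were 0.90, 1.13, 0.62, 0.94 and 1.14 in that order. All these values come from the same 13 libraries and share their depth and cell makeup.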

How the data were processed

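RNA of the isolated neurovasculature was sequenced by the authors from 13 mice with a stranded kit as single-end reads of 75 bases. Per the study's methods and the submitters' processing notes, the authors used bcl2fastq 2.15.0.4, aligned reads to GRCm38 with STAR 2.5.2a and deposited unnormalized whole-number counts for the genes of GENCODE M9 basic. Of the 47643 identifiers, 47224 matched GENCODE M21 on the same build, the source of symbols, positions and exon lengths. The strand column counted is not given in the sources used here.

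The deposited counts were filtered with filterByExpr (minimum count 10, minimum total 15), which left 17285 of 27934 genes with any count, scaled by TMM (factors 0.908 to 1.08) and fitted in 1 quasi-likelihood model of the 3 groups with edgeR 4.0.16 in R 4.3.3. A gene passed with a change of 2-fold or more and a p of 0.05 or lower after Benjamini-Hochberg adjustment. The study's own test, limma-voom (limma 3.58.1), was an alternative, beside DESeq2 1.42.0, DESeq2's size factors, scaling to the endothelial markers, no filter, a mean count of at least 50, only the groups compared, glmTreat, a replicate block, omission of the 2 shallowest libraries, and each of the 13 mice left out. The fits were also run on simulated counts in which all genes shared the same dispersion setting and only LPS-vehicle libraries were changed. That run does not bear on how stable the members' calls are. Total counts per library were 7813559 to 55133373, and counting error limits genes near 3 counts. Log2 CPM used a prior count of 2. Python 3.11.15, pandas 2.3.3, numpy 2.4.6 and matplotlib 3.10.9 were used besides.

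Groups and mouse numbers come from the sample labels. The study gives its group sizes for this experiment in mice, so each library is called a mouse. Named genes were all 10 members, genes of 2 pathway lists that passed the threshold or are direct partners of a member, overlapping genes (1 is not reported here), and the 3 most alike genes of each member that passed. Members and lists were chosen with earlier results of these data known. The marker lists also included platelets, lymphocytes, erythrocytes, astrocytes, oligodendrocytes, fibroblasts and choroid plexus.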

Additional observations from a re-analysis of the deposited data

How the results depend on the processing

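Of the members' log2 fold changes recomputed over the 3 comparisons, 267 kept their direction and side of the threshold under the alternatives, 16 lost the call and 5 turned sign, and with 1 mouse left out the numbers were 359, 21 and 9, with 1 gained. After LPS, 3 members passed, and 1 passed with a mean count of at least 50 (6 members tested) and with glmTreat, which tests the 2-fold change itself. For LPS-CPD-4645 against sham-vehicle mice 4 passed, against 0 with the endothelial scaling and with glmTreat, 1 with a mean count of at least 50 and 2 without the 2 shallowest libraries. Leaving out 1 mouse gave 2 to 3, 1 to 1 and 1 to 4 members in the 3 comparisons. *Ltc4s* after LPS and *Alox5ap* in LPS-CPD-4645 against LPS-vehicle mice passed under every alternative that tested them, while *Alox5ap* after LPS lost its call with glmTreat (adjusted p = 0.237).

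The *Ptger1* difference after LPS, -0.01, became 0.26 with limma-voom, 0.0136 with a mean count of at least 50, 0.22 with the replicate block and 0.0769 without the 2 shallowest libraries, and ran from -0.21 to 0.21 with 1 mouse left out. *Ptgir* in LPS-CPD-4645 against LPS-vehicle mice became 0.0632 with the endothelial scaling and ran from -0.42 to 0.59 with 1 mouse left out, and *Ptger4* in that comparison ran from -0.30 to 0.0445. The cause was not tested. With glmTreat 439, 65 and 561 of all genes passed in place of 981, 1019 and 1917. In LPS-CPD-4645 against LPS-vehicle mice 465 passed with the endothelial scaling and 632 with a mean count of at least 50, of 13860 genes tested. The endothelial scaling moved the median log2 fold change of all genes to 0.10, 0.06 and 0.16, and the share of calls that were higher from 28.9% to 45.4% in LPS-CPD-4645 against LPS-vehicle and from 55.1% to 75.1% in LPS-CPD-4645 against sham-vehicle mice.

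Mouse numbers are shared between groups, but same-numbered mice did not deviate together (r from -0.03 to 0.11 over 12 pairs, 1 above 0.1). With the replicate block 3, 1 and 4 members and 972, 939 and 1882 of all genes passed. Depth limits *Ptgir* and *Ptgfr*, with 0 to 8 counts of *Ptgir* in sham-vehicle mice and 3 to 12 of *Ptgfr* in LPS-CPD-4645 mice.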

Other observations

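The other marker lists are given here as levels, and their part in the levels of the members was not tested. The 5 astrocyte markers summed to 983 to 1287, 1385 to 1792 and 1272 to 1716 CPM in the sham-vehicle, LPS-vehicle and LPS-CPD-4645 groups, and 1 of the 5 was above sham-vehicle mice in each LPS group. The 3 erythrocyte markers summed to 440 to 896, 226 to 435 and 310 to 660 CPM, with every LPS-vehicle mouse below the sham-vehicle range, and the 5 platelet markers to 12.4 to 17.7, 11.7 to 17.0 and 14.9 to 21.5 CPM, with none past the threshold in any comparison. The 5 lymphocyte markers reached at most 0.856 CPM in sum and were too low to be tested. The 4 choroid plexus markers summed to 329 to 698 CPM in sham-vehicle, 161 to 362 CPM in LPS-vehicle and 238 to 773 CPM in LPS-CPD-4645 mice. Of these markers 1 was lower after LPS and 1 was higher in LPS-CPD-4645 than in LPS-vehicle mice. The 4 oligodendrocyte markers summed to 3526 to 5337, 2565 to 3470 and 3071 to 4013 CPM, with every LPS-vehicle mouse again below the sham-vehicle range, and with 1 higher and 1 lower after LPS and 1 lower in LPS-CPD-4645 than in LPS-vehicle mice. The 5 fibroblast markers summed to between 97.0 and 145 CPM, with 1 lower in LPS-CPD-4645 than in sham-vehicle mice. In each of the 30 sets of 4 or 5 mice formed by the 10 members and 3 groups, no mouse lay far enough from its group to exceed Dixon's 95% limit.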
